A study of Saccharomyces cerevisiae with 20 samples.

Results

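The features described here are noncoding RNAs (ncRNAs) named by chromosome and strand, such as 16F-36 on the forward strand (F) of chromosome XVI. Of the 12131 features that were counted, 1654 carry such a name, and 1350 were analysed, those whose median in the 20 libraries was 1 CPM or more. CPM here takes the counts on the 5556 features that are not ORFs as its total, since the ORFs (6575 features whose name begins with Y) were analysed as a table of their own. In all 1654 names the number and the letter matched the chromosome and strand listed for the feature.

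The study looked for genes that, when overexpressed, make the structured, fluffy colonies of yeast strain F45 smoother. Each of the 5 strains was F45 (MATa, ho∆0::hphMX6, SPS2:EGFP:natMX4, with an unmapped serine auxotrophy) carrying a low copy number MoBY plasmid with SFL1, HEK2, SAN1, ROF1, or TOS8 under its native promoter. There were 4 replicate samples per strain, each RNA from 3 to 5 pooled colonies grown for 4 d at 30° on YPD with 2% glucose and G418, which keeps the plasmid. The F45 strain with an empty vector was not analysed here, so every comparison is between overexpression strains. SFL1 encodes a repressor of flocculation genes, HEK2 an RNA-binding protein, SAN1 a nuclear ubiquitin ligase, ROF1 a paralog of the pseudohyphal regulator MIT1, and TOS8 a homeodomain transcription factor.

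Yeast genes are closely spaced, and transcription outside ORFs commonly starts at the same nucleosome-free regions as mRNA transcription, running away from the gene (divergent transcription), or starts near a gene's end and runs back through it (antisense transcription). Many of these RNAs are degraded soon after synthesis. Transcription of some of them through a promoter or a gene body is known to repress the gene, as for the antisense RNA at IME4 and the upstream RNA at SER3. The libraries were stranded and selected for polyadenylated RNA, so reads of an antisense RNA were counted apart from those of the ORF beneath it. Reads given the wrong strand would be an exception, and their share was not measured.

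The 250 bases before the annotated start of 4 of the features are given below, since these 4 had some of the clearest differences between strains. The first 3 lie beside genes of heat shock proteins, and the fourth lies before TEC1. The windows of 16F-36 and 5R-166 lie between their starts and those of the divergent heat shock genes HSP82 and SSA4. That of 12R-244 lies on the side of the divergent LCB5, away from HSP60, and takes in 14 bases of the LCB5 ORF. The 4 windows were chosen after the values had been seen. All are from the RefSeq copy of the S288c genome (R64), written 5′ to 3′ on the strand of the feature. Capitals mark matches on either strand to TTCNNGAA or GAANNTTC, the pairs of inverted units that make up heat shock elements (each reads the same on both strands), in the first 3, and in the last to words bound by 2 regulators of filamentation, CATTCT (Tec1), its variant CATTCC, and TGAAACA (Ste12).
16F-36, chrXVI:98673-98922, plus strand: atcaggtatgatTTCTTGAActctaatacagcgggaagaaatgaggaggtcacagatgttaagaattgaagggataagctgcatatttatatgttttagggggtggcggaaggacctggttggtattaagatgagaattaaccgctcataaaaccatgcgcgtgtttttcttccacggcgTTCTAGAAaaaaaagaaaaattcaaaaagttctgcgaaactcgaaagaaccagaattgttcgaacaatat
5R-166, chrV:364288-364537, minus strand: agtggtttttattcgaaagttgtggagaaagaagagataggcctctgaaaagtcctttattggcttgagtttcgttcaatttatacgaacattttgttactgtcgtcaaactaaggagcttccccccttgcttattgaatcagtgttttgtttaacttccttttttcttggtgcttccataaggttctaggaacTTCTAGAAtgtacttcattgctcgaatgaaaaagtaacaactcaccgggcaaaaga
12R-244, chrXII:665608-665857, minus strand: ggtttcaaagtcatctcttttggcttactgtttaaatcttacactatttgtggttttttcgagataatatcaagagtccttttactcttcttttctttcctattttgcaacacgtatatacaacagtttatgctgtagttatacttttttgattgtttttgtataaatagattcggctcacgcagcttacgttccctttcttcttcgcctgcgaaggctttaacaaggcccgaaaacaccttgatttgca
2F-170, chrII:407997-408246, plus strand: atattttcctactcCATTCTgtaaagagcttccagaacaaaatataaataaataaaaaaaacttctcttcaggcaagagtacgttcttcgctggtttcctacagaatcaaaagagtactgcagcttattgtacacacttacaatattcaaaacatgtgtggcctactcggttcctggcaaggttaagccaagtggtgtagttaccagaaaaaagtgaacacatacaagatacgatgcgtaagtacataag
The window of 16F-36 held TTCTTGAA and TTCTAGAA, between 63 and 238 bases before its start. That of 5R-166 held TTCTAGAA, which overlaps a match to CATTCT on the other strand, whereas the window of 12R-244 held no match to either word. Over all 1350 windows, 23.2% held TTCNNGAA or GAANNTTC, and among the 72 features that were higher in the TOS8 strain 25% did. Taken singly, TTCNNGAA was in 19.4% of the 72 and 12.7% of all, and GAANNTTC in 9.72% and 12.1%, with no test of either. The 2F-170 window held CATTCT and, left in lower case, TTCCAGAA. CATTCT was in 17.8% of windows, CATTCC in 9.78%, and TGAAACA in 7.56%.

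The libraries held 6027147 to 35027485 counts. ORFs took almost all of them, the other features 0.930% to 1.08%, and the 1350 ncRNAs 0.334% to 0.396%, so that 1 CPM stood for 0.0602 to 0.351 counts. The median ncRNA had 349 counts over the 20 libraries together (range 10 to 36192), and 263 had fewer than 100. The ORF of the plasmid gene was higher in all 4 libraries of its own strain than in any other library for each of the 5 genes, with log2 fold changes of 1.29 (SAN1) to 2.19 (SFL1). Fewer cells that make an RNA and less RNA per cell cannot be told apart in colonies.

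The ncRNAs were 252 to 5195 bases long, with a median of 677, on all 16 chromosomes, with 680 on the plus and 670 on the minus strand. An ORF on the opposite strand was overlapped by 946 of them (70.1%), of which 229 lay wholly inside an ORF, 494 covered at least 50% of one, and 181 covered a whole ORF. Another 396 overlapped no ORF, and 8 overlapped one on their own strand. For 526 the start lay within 500 bases of the start of a divergent ORF. Their median G+C content was 38.6%, against 39.7% in the tested ORFs. Annotated long terminal repeats of transposons lay under 52 of the ncRNAs on the same strand. In 80 a stretch of at least 100 bases had a copy elsewhere in the genome with at least 90% identity, and reads from such copies may have been counted at either place. A total of 637 shared bases on their own strand with another feature, where featureCounts does not assign a read pair, so their counts reflect only the rest of their length. Among those named below, they include 16R-307, 5R-166, 2F-154, 5F-125, 9F-4, 15F-331, 13F-195, 8R-217, 7R-133, and 7F-158.

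A median of at least 1 CPM was the same as having a count in at least 10 libraries. The features just inside that limit were 8R-22, antisense to WSC4, with 14 counts in all, and 16F-238, antisense to YPR014C, with 12. Of the 304 left out, 199 had no count in any library, and 285 of the 304 shared bases on their strand with another feature.

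At a false discovery rate (FDR) of 0.01 by edgeR's quasi-likelihood test, 240 of the 1350 ncRNAs differed among the 5 strains (17.8%). Over all 4007 tested features that are not ORFs the share was 15.8%, and over the ORFs it was 58.5%. The count rose with depth, from 4 of the 263 ncRNAs with fewer than 100 counts (1.52%) to 124 of the 309 with 1000 or more (40.1%). In simulated counts for the TOS8 comparison, 38% of features changed 2-fold and 86% of those changed 4-fold were recovered, so many differences of this size were not detectable at this depth. The 240 differed between their highest and lowest strain by a median of 2.03-fold (1.35 to 22.8), and 122 by more than 2-fold. The TOS8 strain was the lowest of the 5 for 96 and the highest for 70, and the HEK2 strain was the highest for 77. Over all 1350 ncRNAs, called or not, the same strains were most often at the extremes, with TOS8 lowest for 384 and highest for 312 and HEK2 highest for 330. Antisense ncRNAs and those that overlapped no ORF were called at like rates of 17.4% and 18.4%.

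In the TOS8 strain against the mean of the other 4, 72 ncRNAs were higher (5.33%, against 5.49% of all features tested) and 81 lower (6%, against 4.54%), 153 in all (11.3%, against 10%), with log2 fold changes from -2.39 to 2.55 and a median of -0.02 over all 1350. In 51 the 4 TOS8 libraries did not overlap the other 16 (3.02% of all features tested did not overlap). Of these, 49 also passed the test, and the 6 largest rises and 6 largest falls among them are described first.

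16F-36 (385 bases, chrXVI:98923-99307, plus strand) rose most. It starts 298 bases from the start of HSP82, which encodes an Hsp90 chaperone and points the other way, and ends 176 bases before YAR1, which encodes a chaperone of ribosomal protein Rps3. Its normalized CPM was 944, 843, 1035, and 835 in the TOS8 libraries and 16 to 302 (median 141.5) in the other 16. All TOS8 libraries lay well above the others, a 5.85-fold difference (log2 fold change 2.55 ± 0.16 SE, adjusted p = 1.497e-20). The ORFs on either side rose as well, HSP82 by 1.05 ± 0.11 (adjusted p = 1.72e-07) and YAR1 by 1.13 ± 0.07 (adjusted p = 3.48e-10) on the log2 scale.

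A second ncRNA beside a heat shock gene, 5R-166 (590 bases, chrV:363698-364287, minus strand), starts 302 bases from the start of SSA4, which encodes a stress-induced Hsp70. Its normalized CPM was 2366, 1963, 2645, and 2201 in the TOS8 strain and 368 to 1218 (median 716) elsewhere. It was 2.73-fold higher (log2 1.45 ± 0.13, adjusted p = 1.42e-14), and SSA4 was higher by 1.21 ± 0.13 (adjusted p = 1.75e-07). Its far end overlaps RPS8B by 5 bases, and that ribosomal protein ORF was at -0.15 ± 0.06 (adjusted p = 0.0314), short of the threshold.

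The third, 12R-244 (394 bases, chrXII:665214-665607, minus strand), ends 211 bases before HSP60, the mitochondrial chaperonin gene, and starts 237 bases from the divergent LCB5, a sphingoid long-chain base kinase gene. It stood at 194, 243, 243, and 240.3 CPM in the TOS8 strain and at 14.9 to 102 (median 69.6) in the other libraries, with only 379 counts in all behind these values. The difference was 3.45-fold (log2 1.79 ± 0.19, adjusted p = 1.07e-11). LCB5 rose by 0.46 ± 0.06 (adjusted p = 6.40e-07), whereas HSP60 was at -0.03 ± 0.05 (adjusted p = 0.624).

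The remaining rises lay elsewhere. 16F-272 (261 bases, chrXVI:680817-681077, plus strand) begins 17 bases past the end of ROX1, the repressor of hypoxic genes, on the same strand. Its CPM was 3310, 2728, 3269, and 4043 in the TOS8 strain and 394 to 2116 (median 1080) in the others, a 2.83-fold rise (log2 1.499 ± 0.17, adjusted p = 3.33e-10), and ROX1 itself rose by 1.59 ± 0.29 (adjusted p = 7.97e-05). The ORF features end with the coding sequence in these files, so reads from an mRNA's end past ROX1 would be counted on 16F-272, and their part in its rise was not tested. 16R-307 (527 bases, chrXVI:678521-679047, minus strand), which overlaps 97 bases of YPR064W on the opposite strand, was at 259, 212, 243, and 207 CPM against 39.7 to 147 (2.85-fold, adjusted p = 6.87e-10). 10F-174 (504 bases, chrX:380618-381121, plus strand), antisense to 51% of TAD2, a tRNA adenosine deaminase gene, was at 181, 259, 258, and 139 CPM against 27.9 to 134 (2.54-fold, adjusted p = 1.16e-07), and TAD2 was at 0.16 ± 0.06 on the log2 scale (adjusted p = 0.0255).

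In the 4 other strains, 16F-36, 5R-166, and 16F-272 also varied together between libraries. Each was higher in replicates 1 and 2 than in replicates 3 and 4 in each of these strains, as with 16F-272 at 2116 and 1909 against 721 and 563 CPM in the SFL1 strain. ROX1 did the same, at 353 and 286 against 124 and 89.4 CPM of ORF counts in the SFL1 strain. So did SSA4, at 1030 and 1035 against 853 and 808 there. HSP82 did not in the HEK2 strain, at 543 and 571 against 573 and 653. In the TOS8 strain no such order was present. The labels do not say what a shared number means. In a fit blocked on that number, the log2 fold changes of the 3 in the TOS8 strain were 2.67 for 16F-36, 1.54 for 5R-166, and 1.71 for 16F-272, each slightly larger than without it.

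**Figure D1:**
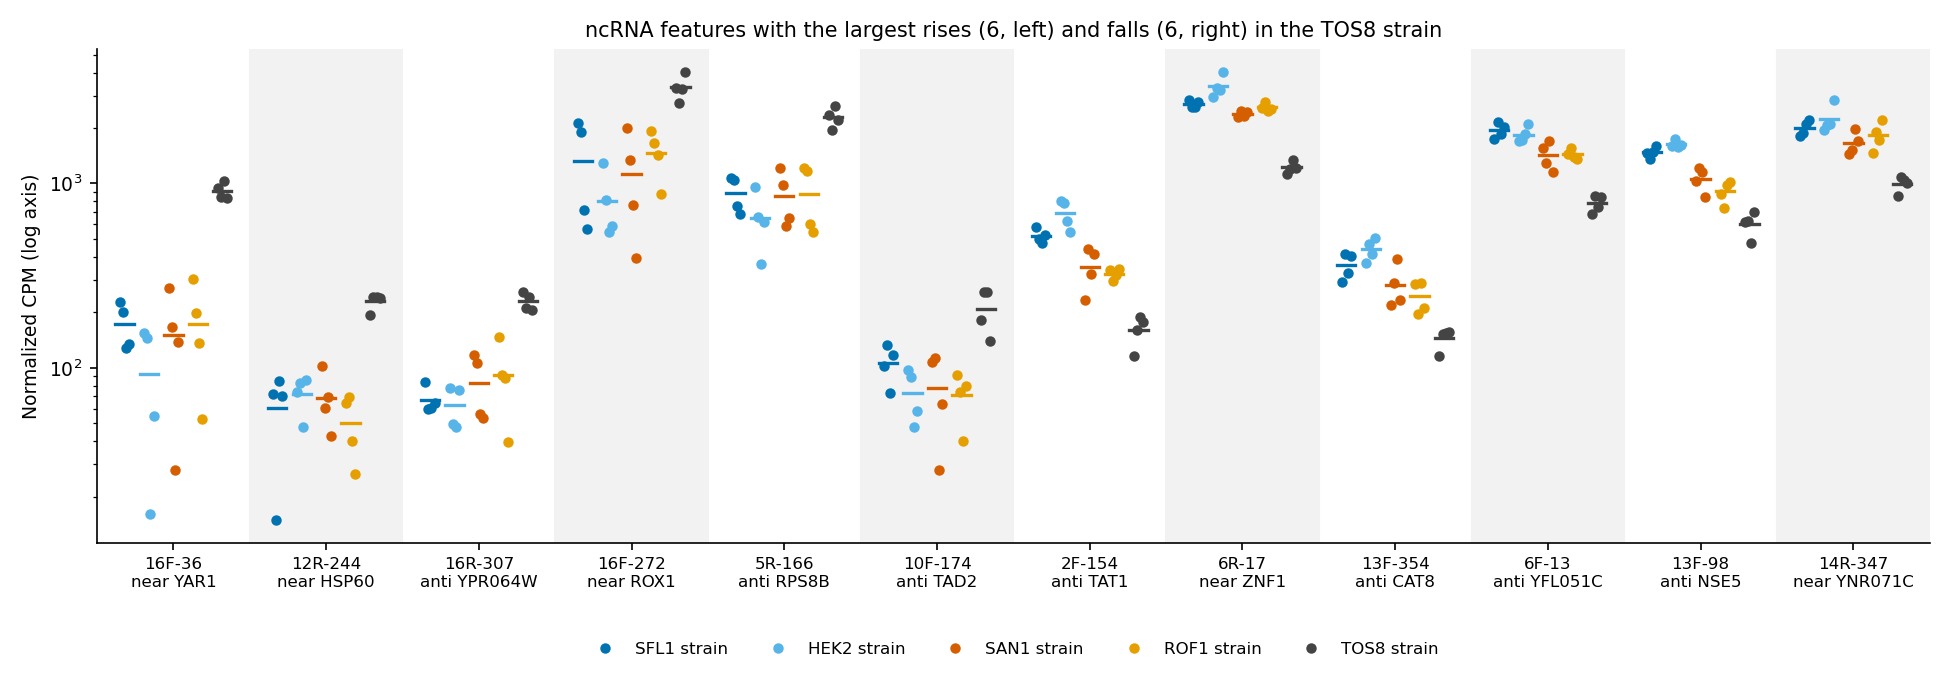
Normalized CPM (log axis) of the 12 ncRNAs with the largest rises and falls among those called and not overlapping in the TOS8 strain, with 1 point per library (4 per strain), bars for strain means, and the overlapping or nearest ORF below each name. The 4 TOS8 points lie above all 16 others for the first 6 and below all 16 for the last 6.

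Among the ncRNAs whose TOS8 libraries did not overlap the others, the largest fall was that of 2F-154 (2024 bases, chrII:376610-378633, plus strand), which is antisense to 98.1% of TAT1, an amino acid permease gene. It was at 116, 161, 188, and 177 CPM in the TOS8 strain and 235 to 799 (median 458) in the others, with the HEK2 strain highest (mean 689 ± 124 SD, n = 4). It was 2.66-fold lower (log2 -1.41 ± 0.15, adjusted p = 2.90e-11), and TAT1 was at 0.30 ± 0.10 (adjusted p = 0.0112). 13F-354 (2931 bases, chrXIII:827781-830711, plus strand) lies wholly within CAT8, an activator of gluconeogenic genes, on the opposite strand. Its CPM of 116, 153, 154, and 156 compared with 195 to 509 (2.13-fold lower, adjusted p = 1.73e-07), and CAT8 was at -0.07 ± 0.07 (adjusted p = 0.416).

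13F-98 (1587 bases, chrXIII:227005-228591, plus strand) is antisense to 95.0% of NSE5, a gene of the Smc5-Smc6 complex. It was at 621, 627, 476, and 699.8 CPM in the TOS8 strain, 741 to 1219 in the SAN1 and ROF1 strains, and 1352 to 1753 in the SFL1 and HEK2 strains, so that the 3 sets of libraries did not overlap. It fell by 1.02 ± 0.11 (adjusted p = 1.52e-11) while NSE5 rose by 0.25 ± 0.05 (adjusted p = 0.000198), the opposite direction. 6F-13 (793 bases, chrVI:30375-31167, plus strand), antisense to 34.4% of YFL051C, was at 685, 854, 748, and 843 CPM against 1160 to 2154 (2.07-fold lower, adjusted p = 6.53e-13), and YFL051C had too few counts to be tested.

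Both of the other falls were of ncRNAs that start close to a divergent ORF that also fell. 6R-17 (1862 bases, chrVI:26056-27917, minus strand) starts 315 bases from ZNF1, a zinc cluster regulator of respiratory growth. It was at 1125, 1203, 1342, and 1218 CPM against 2295 to 4029 (2.23-fold lower, adjusted p = 5.32e-16), and ZNF1 fell by 0.79 ± 0.08 (adjusted p = 3.23e-08). 14R-347 (1115 bases, chrXIV:771483-772597, minus strand) starts 60 bases from HXT17, a hexose transporter gene, and ends 14 bases before YNR071C, a putative aldose epimerase gene on its own strand. Its CPM of 853, 1086, 1040, and 1012 compared with 1454 to 2829 (1.90-fold lower, adjusted p = 1.48e-10), HXT17 fell by 0.995 ± 0.07 (adjusted p = 9.91e-10), and YNR071C fell by 1.603 ± 0.09 (adjusted p = 5.98e-11).

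Between the SFL1 and HEK2 strains on one side and the SAN1 and ROF1 strains on the other, 68 ncRNAs were higher in the first pair (5.04%, against 4.12% of all features tested) and 46 lower (3.41%, against 3.82%), 114 in all (8.44%, against 7.94%). The balance was closer to even with RLE size factors (62 higher, 55 lower), with no filter (65 and 54), and with DESeq2 (52 and 50). The 8 libraries of each pair did not overlap for 28 ncRNAs (1.90% of all features tested). Of these, 27 also passed the test. The largest differences among the 27, with at least 10 counts per library on average in the higher pair, are described here. The first of them is at TEC1, which encodes a transcription factor of filamentous growth. 2F-170 (523 bases, chrII:408247-408769, plus strand) ends 399 bases before the TEC1 ORF and runs in the same direction. Its CPM was 299, 223, 231, and 170.1 in the SFL1 strain and 206, 365, 256, and 241 in the HEK2 strain. The SAN1 libraries had 826, 1135, 600.4, and 1160, and the ROF1 libraries 1483, 1711, 1449, and 1244. The TOS8 strain, which is outside this comparison, had 1138 to 1379. The pairs were 4.73-fold apart (log2 -2.24 ± 0.12, adjusted p = 1.13e-24). TEC1 was also lower in the SFL1 and HEK2 strains, by less, at means of 37.1 and 35.1 CPM of ORF counts in the SFL1 and HEK2 strains and 53.9, 62.3, and 61.6 in the SAN1, ROF1, and TOS8 strains (log2 -0.68 ± 0.06 between the pairs, adjusted p = 3.74e-08). A second ncRNA there, 2R-178, runs the other way across the whole of 2F-170 and into the first 39 bases of TEC1, and was at 0.56 (adjusted p = 0.0194). The next ncRNA upstream, 2F-169, was at -0.33 (adjusted p = 0.0437). Neither passed the threshold.

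Opposite changes of ncRNA and ORF were seen at CSS1 (YIL169C) and HPF1, related genes, of which HPF1 encodes a secreted mannoprotein. 9F-4 (5195 bases, chrIX:23341-28535, plus strand) is antisense to 92.6% of CSS1. It was at 1957 to 4022 CPM in the SFL1 and HEK2 strains and 6366 to 10375 in the SAN1 and ROF1 strains (3.08-fold lower, log2 -1.62 ± 0.09, adjusted p = 4.08e-23), while CSS1 was higher by 1.66 ± 0.14 (adjusted p = 1.81e-08). The inverse order did not extend to the TOS8 strain, where both were low, 9F-4 at 3090 to 3676 CPM and CSS1 at a mean of 289.7 CPM of ORF counts, against 936 and 1137 in the SFL1 and HEK2 strains and 317 and 337 in the SAN1 and ROF1 strains. 15F-14 (359 bases, chrXV:28317-28675, plus strand) lies 27 bases past the end of HPF1 on the opposite strand and was lower by 1.12 ± 0.10 (adjusted p = 1.63e-14), and HPF1 was higher by 1.56 ± 0.15 (adjusted p = 1.94e-07). The corresponding ncRNA beyond the end of CSS1 is 9F-2 (387 bases, chrIX:22547-22933), which was lower by 0.82 (adjusted p = 2.00e-12). The 2 sequences are copies of each other with 98.7% identity over the length of 9F-2. The counts of 15F-14 and 9F-2 are therefore not independent. For 9F-4, 5.49% of the length has such a copy, at chrXV:29093-29377 within HPF1. Reads of the CSS1 and HPF1 ORFs may be shared as well, which was not tested. HPF1 means were 885, 1191, 343, 353, and 283 CPM of ORF counts in the SFL1, HEK2, SAN1, ROF1, and TOS8 strains. These are close to the means of CSS1.

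The other ncRNAs singled out by this comparison had 186 to 492 counts in all apart from 16F-208 (825 bases, chrXVI:526402-527226, plus strand), antisense to 44.9% of HST2, a sirtuin deacetylase gene. 16F-208 was at 576 to 898 CPM in the SFL1 and HEK2 strains and 266 to 450 in the SAN1 and ROF1 strains (log2 1.19 ± 0.10, adjusted p = 1.63e-14), and HST2 was at 0.13 ± 0.05 (adjusted p = 0.0250). 13F-342, antisense to YMR265C, had 237 against 63 counts and was higher by 1.14 ± 0.20 (adjusted p = 1.91e-05), whereas YMR265C fell by 0.81 ± 0.07 (adjusted p = 1.49e-08). In the TOS8 strain the same opposition held, with the lowest mean of 13F-342 (29.3 CPM) and the highest of YMR265C (21.6 CPM of ORF counts) among the 5 strains. 15F-180, antisense within DDL1, a phospholipase gene, was higher by 1.24 ± 0.30 (adjusted p = 0.00161), and 5F-125, divergent from PIC2, a mitochondrial copper and phosphate carrier gene, by 1.04 ± 0.19 (adjusted p = 5.09e-05). DDL1 was at -0.10 (adjusted p = 0.165) and PIC2 at 0.13 (adjusted p = 0.244). 15F-331, next to YOR192C-C and overlapping long terminal repeats, was lower by 1.13 ± 0.17 (adjusted p = 1.06e-06), with 7.81% of its length in 18 near-identical copies.

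**Figure D2:**
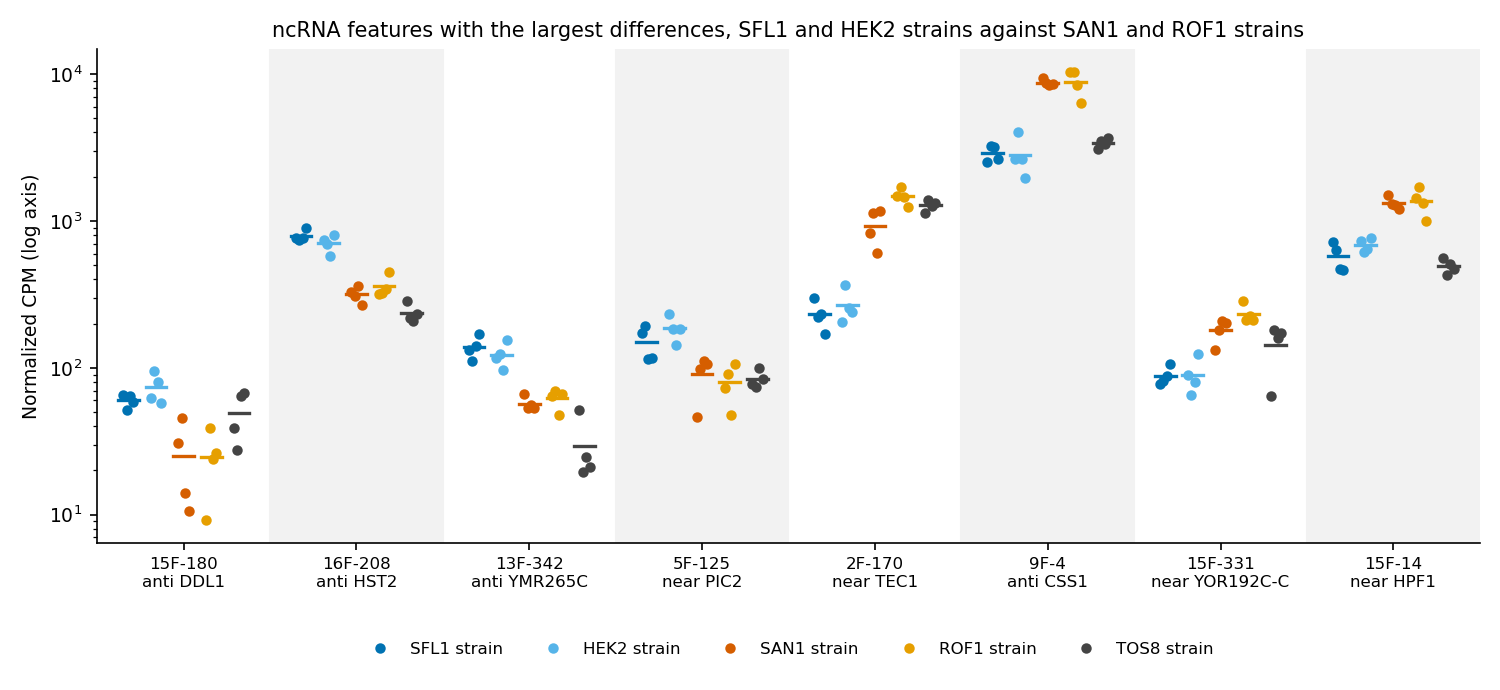
Normalized CPM (log axis) of the 8 ncRNAs with the largest differences, among those called and not overlapping, between the SFL1 and HEK2 strains and the SAN1 and ROF1 strains, with 1 point per library and bars for strain means. For 2F-170 the TOS8 points lie with those of the SAN1 and ROF1 strains, and for 9F-4 and 15F-14 they lie with those of the SFL1 and HEK2 strains.

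Within the pairs few ncRNAs differed. Between the SFL1 and HEK2 strains 3 were higher and 4 lower (0.519%, against 0.524% of all features tested), and 96 did not overlap (6.11% of all features tested). 13F-195 (1681 bases, chrXIII:429881-431561, plus strand) covers the whole of ISF1, a gene of respiratory growth, on the opposite strand. It was at 353, 327, 265, and 487 CPM in the SFL1 strain and only 171, 168, 224, and 137 in the HEK2 libraries (2.13-fold, log2 1.09 ± 0.19, adjusted p = 0.000167), and ISF1 was at -0.23 ± 0.11 (adjusted p = 0.1604). It was the only one of the 5 ncRNAs named for this comparison whose call was kept when any single library was left out. The others were 7F-95, 858 bases before RCK1 (log2 1.42 ± 0.31, adjusted p = 0.00552), 10R-62, antisense within MRS3 (0.69 ± 0.15, adjusted p = 0.00439), 4R-309, upstream of YDR133C (-0.81 ± 0.17, adjusted p = 0.00473), and 2R-58, antisense within HEK2 itself (-1.43 ± 0.29, adjusted p = 0.00265). Leaving out 1 library ended these calls: SFL1 replicate 1 or 3 or HEK2 replicate 1, 2, or 4 for 7F-95 (adjusted p up to 0.0489), SFL1 replicate 3 or 4 or HEK2 replicate 1 or 4 for 10R-62 (up to 0.0320), SFL1 replicate 1 or 4 or HEK2 replicate 1 or 4 for 2R-58 (up to 0.0287), and each except SFL1 replicate 1 and HEK2 replicate 3 for 4R-309 (up to 0.0304). In all, 3 ncRNAs passed without SFL1 replicate 3, 3 without HEK2 replicate 1, and 4 without SFL1 replicate 1 or replicate 4. With TMM over ORFs and other features together, 2 were higher and 14 lower, so the balance of directions here rested on the scaling.

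Between the SAN1 and ROF1 strains 10 ncRNAs were higher in the SAN1 strain and 4 lower (1.04%, against 0.574% of all features tested), and 61 did not overlap (4.12% of all features tested). The largest differences were at the plasmid genes and are described with them. Away from these genes, 12R-348 (329 bases, chrXII:947247-947575, minus strand), antisense to CTR3, a copper transporter gene, had 50 counts in the SAN1 strain and 9 in the ROF1 strain (log2 2.51 ± 0.51, adjusted p = 0.00153, which was 0.194 without SAN1 replicate 1, 0.0150 without ROF1 replicate 1, 0.0242 without ROF1 replicate 2, and 0.0197 with TMM over all features). 2F-170, before TEC1, was lower in the SAN1 strain by 0.67 ± 0.15 (adjusted p = 0.00490), a call lost without either of SAN1 replicates 1 and 3 or any of ROF1 replicates 1, 2, and 3 (adjusted p up to 0.0837), with TMM over all features (0.0535), or with at least 10 counts in every library (0.0292). 8F-204, past the end of ROF1, was lower by 0.61 ± 0.14 (adjusted p = 0.00863), which was lost without any 1 of the SAN1 and ROF1 libraries except SAN1 replicate 3 (adjusted p up to 0.118), without SFL1 replicate 2 or 4 (0.0105 and 0.0102), with DESeq2 (0.0105), with TMM over all features (0.0378), and with at least 10 counts in every library (0.0190). 15R-430, past the end of TYE7, was lower by 0.589 ± 0.115 (adjusted p = 0.000789). It was at 1958 to 2528 CPM in the SAN1 strain and 3031 to 3910 in the ROF1 strain. Its call under other settings was not followed on its own. Without SAN1 replicate 1, 5 ncRNAs passed, without ROF1 replicate 2, 8, and with TMM over all features together 5 ncRNAs were higher and 1 lower.

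The ncRNAs around the 5 plasmid genes were compared between the strain that carries the plasmid and the mean of the other 4. Plasmid inserts contain the gene with sequence on either side of it, and RNA from the plasmid and from the chromosome cannot be told apart. Of the 12 ncRNAs that overlapped or lay within 1000 bases of a plasmid gene, 9 were higher in its own strain. Of all features tested, 2.4% were higher in the contrast of the SFL1 strain, 4.24% in that of HEK2, 0.699% in that of SAN1, 1.3% in that of ROF1, and 5.49% in that of TOS8.

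At SAN1, 3 ncRNAs on the strand opposite to the gene rose. 4F-350 (469 bases, chrIV:742097-742565, plus strand) lies within the end of the ORF. It was at 1214, 1105, 1117, and 1000 CPM in the SAN1 strain and 45.8 to 136 (median 78.3) in the other 16 libraries. No library came close to the SAN1 range, and the ncRNA was 13.9-fold higher (log2 3.80 ± 0.13, adjusted p = 3.51e-35). 4F-352 (562 bases, chrIV:743419-743980), which spans the start of the ORF, was at 653, 499.6, 879.7, and 724 CPM against 21.7 to 163 (8.20-fold, log2 3.04 ± 0.16, adjusted p = 3.37e-24). 4F-354 (257 bases, chrIV:744252-744508), 377 bases before the ORF and partly beneath the end of the neighbouring MKC7, which encodes an aspartyl protease, was at 398, 348, 251, and 404 CPM against 11.6 to 122 (4.59-fold, log2 2.20 ± 0.18, adjusted p = 6.26e-15). SAN1 itself was higher by 1.29 ± 0.04, less than any of the 3, and MKC7 by 2.02 (adjusted p = 2.49e-13).

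The whole ROF1 ORF is covered on the opposite strand by 8R-217 (2452 bases, chrVIII:456050-458501, minus strand). It was at 366, 269, 384, and 477 CPM in the ROF1 strain and at 0 to 41.9 (median 18.1) in the others, where 59 counts were spread over 16 libraries. The difference was 18.1-fold (log2 4.18 ± 0.23, adjusted p = 6.66e-23), against 1.42 ± 0.09 on the log2 scale for ROF1. 8F-204 (1027 bases, chrVIII:458035-459061, plus strand), 82 bases past the end of ROF1 on its strand, was higher by 0.48 ± 0.10 (adjusted p = 0.00144, and 0.0130 and 0.0172 without ROF1 replicate 3 or 4). Its ranges just overlap, at 983 to 1218 CPM in the ROF1 strain and 582 to 985 in the others. Reads from an mRNA's end past ROF1 may be counted on 8F-204, which was not tested. 8R-216, 552 bases from ROF1, was at 0.30 ± 0.35 (adjusted p = 0.772).

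At HEK2, the antisense ncRNAs 2R-58 (256 bases, chrII:160516-160771) and 2R-56 (375 bases, chrII:159869-160243, over the first 60 bases of the ORF) were higher by 1.17 ± 0.21 (adjusted p = 4.69e-05) and 1 ± 0.20 (adjusted p = 0.000235), the latter at adjusted p = 0.0195 without HEK2 replicate 4. Both values were smaller than the 1.61 ± 0.05 of HEK2. For 2R-56 the ranges overlap, at 79.98 to 177 CPM in the HEK2 strain and 31.9 to 98.0 in the others. At TOS8, 7R-135 (337 bases, chrVII:325476-325812, minus strand), antisense within the ORF, was at 969.8, 1062, 1159, and 1130 CPM in the TOS8 strain and 217 to 1000 in the others. These ranges overlap, since the other strains also differed, from a mean of 308 ± 79.5 CPM in the SFL1 strain to 869 ± 121 in the ROF1 strain (SD, n = 4 each), and 7R-135 was 1.92-fold higher (log2 0.94 ± 0.11, adjusted p = 1.08e-10) against 2.17 ± 0.04 for TOS8. 7F-158 and 7R-133, both upstream of TOS8, were at 0.31 ± 0.68 and -0.13 ± 0.28, with 16 and 201 counts in all (adjusted p = 0.852 and 0.850). At SFL1, 15F-281 (439 bases, chrXV:589294-589732, plus strand), 12 bases past the end of the ORF on its strand, was higher by 0.41 ± 0.10 (adjusted p = 0.00373, and 0.0467 and 0.0264 without SFL1 replicate 1 or 2), and SFL1 by 2.19 ± 0.04. The ranges of 15F-281 overlap, at 742 to 926.5 CPM in the SFL1 strain and 363 to 812 in the others. Its mean was 827 CPM in the SFL1 strain and 778 in the TOS8 strain. Reads from an mRNA's end past SFL1 may be counted on 15F-281, which was not tested.

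Counts on the antisense strand were set beside those of the ORF itself, as a measure of whether they kept 1 ratio to it. 4F-350 amounted to 11.3% to 13.15% of the SAN1 ORF count in the SAN1 libraries and 1.24% to 3.09% in the others. 8R-217 amounted to 10.7% to 17.7% of the ROF1 count in the ROF1 strain and 0 to 4.49% elsewhere, so for neither did the ratio ranges overlap between strains. Only 55.55% of the length of 8R-217 lies over ROF1, so its counts may include reads from beyond the ORF. For 2R-58 the ratio to HEK2 was 0.464% to 0.596% in the HEK2 strain and 0.158% to 1.27% in the others, and for 2R-56 0.331% to 0.606% and 0.424% to 1.09%, ranges that overlap. Whether counts of 2R-58 and 2R-56 came from HEK2 reads given the wrong strand was not tested. 7R-135 amounted to 3.14% to 4.12% of the TOS8 count in the TOS8 strain and 2.503% to 15.65% in the others, ranges that also overlap.

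**Figure D3:**
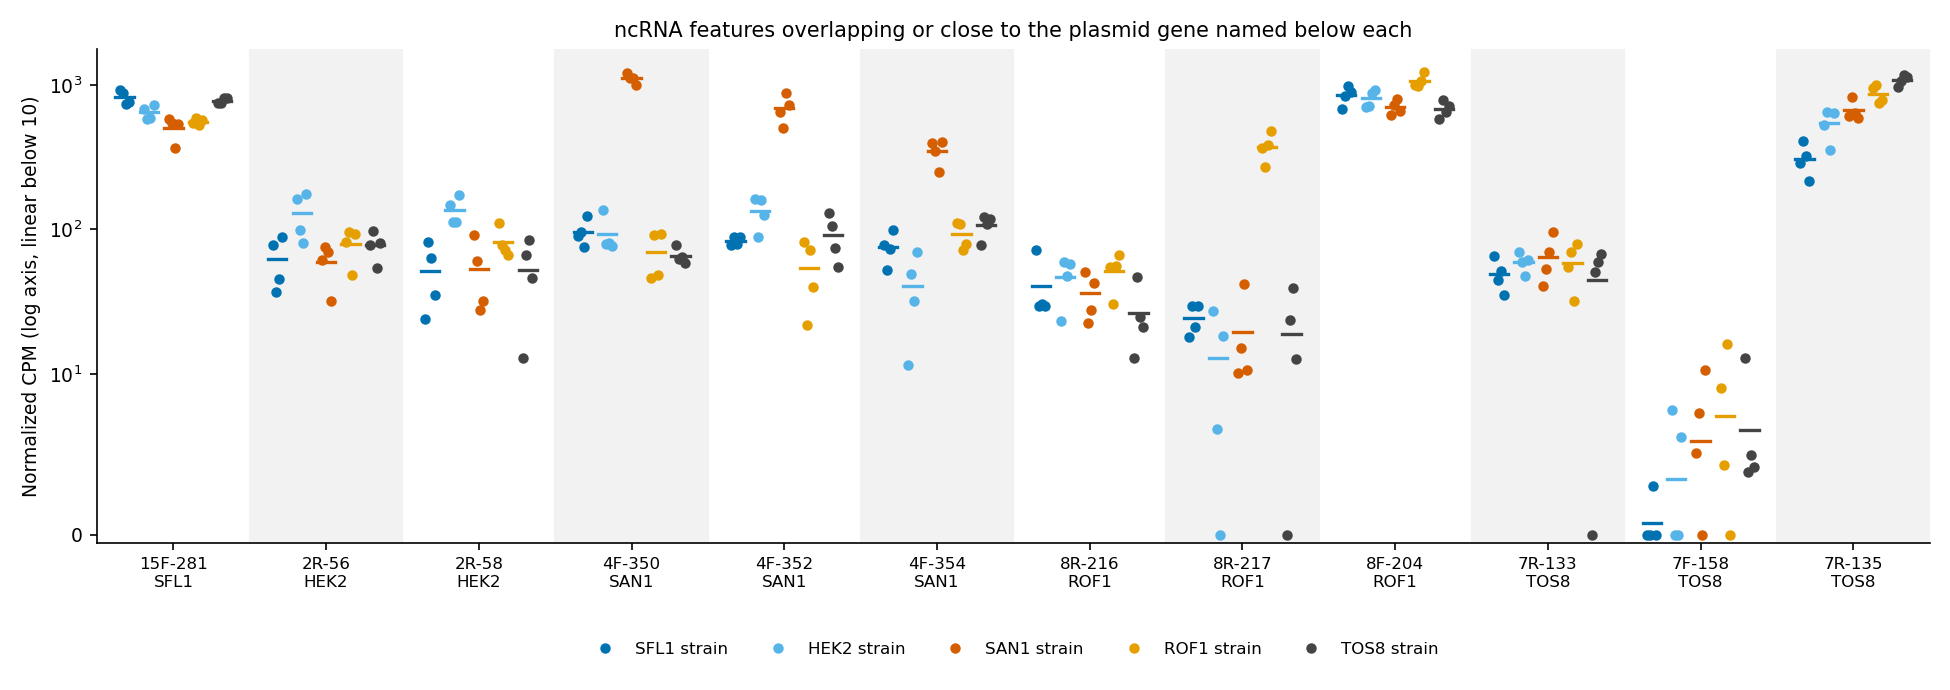
Normalized CPM of the 12 ncRNAs that overlap or lie within 1000 bases of a plasmid gene, whose name is below each (log axis, linear below 10), with 1 point per library and bars for strain means. The SAN1 points of 4F-350, 4F-352, and 4F-354 and the ROF1 points of 8R-217 stand apart from all others.

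**Figure D4:**
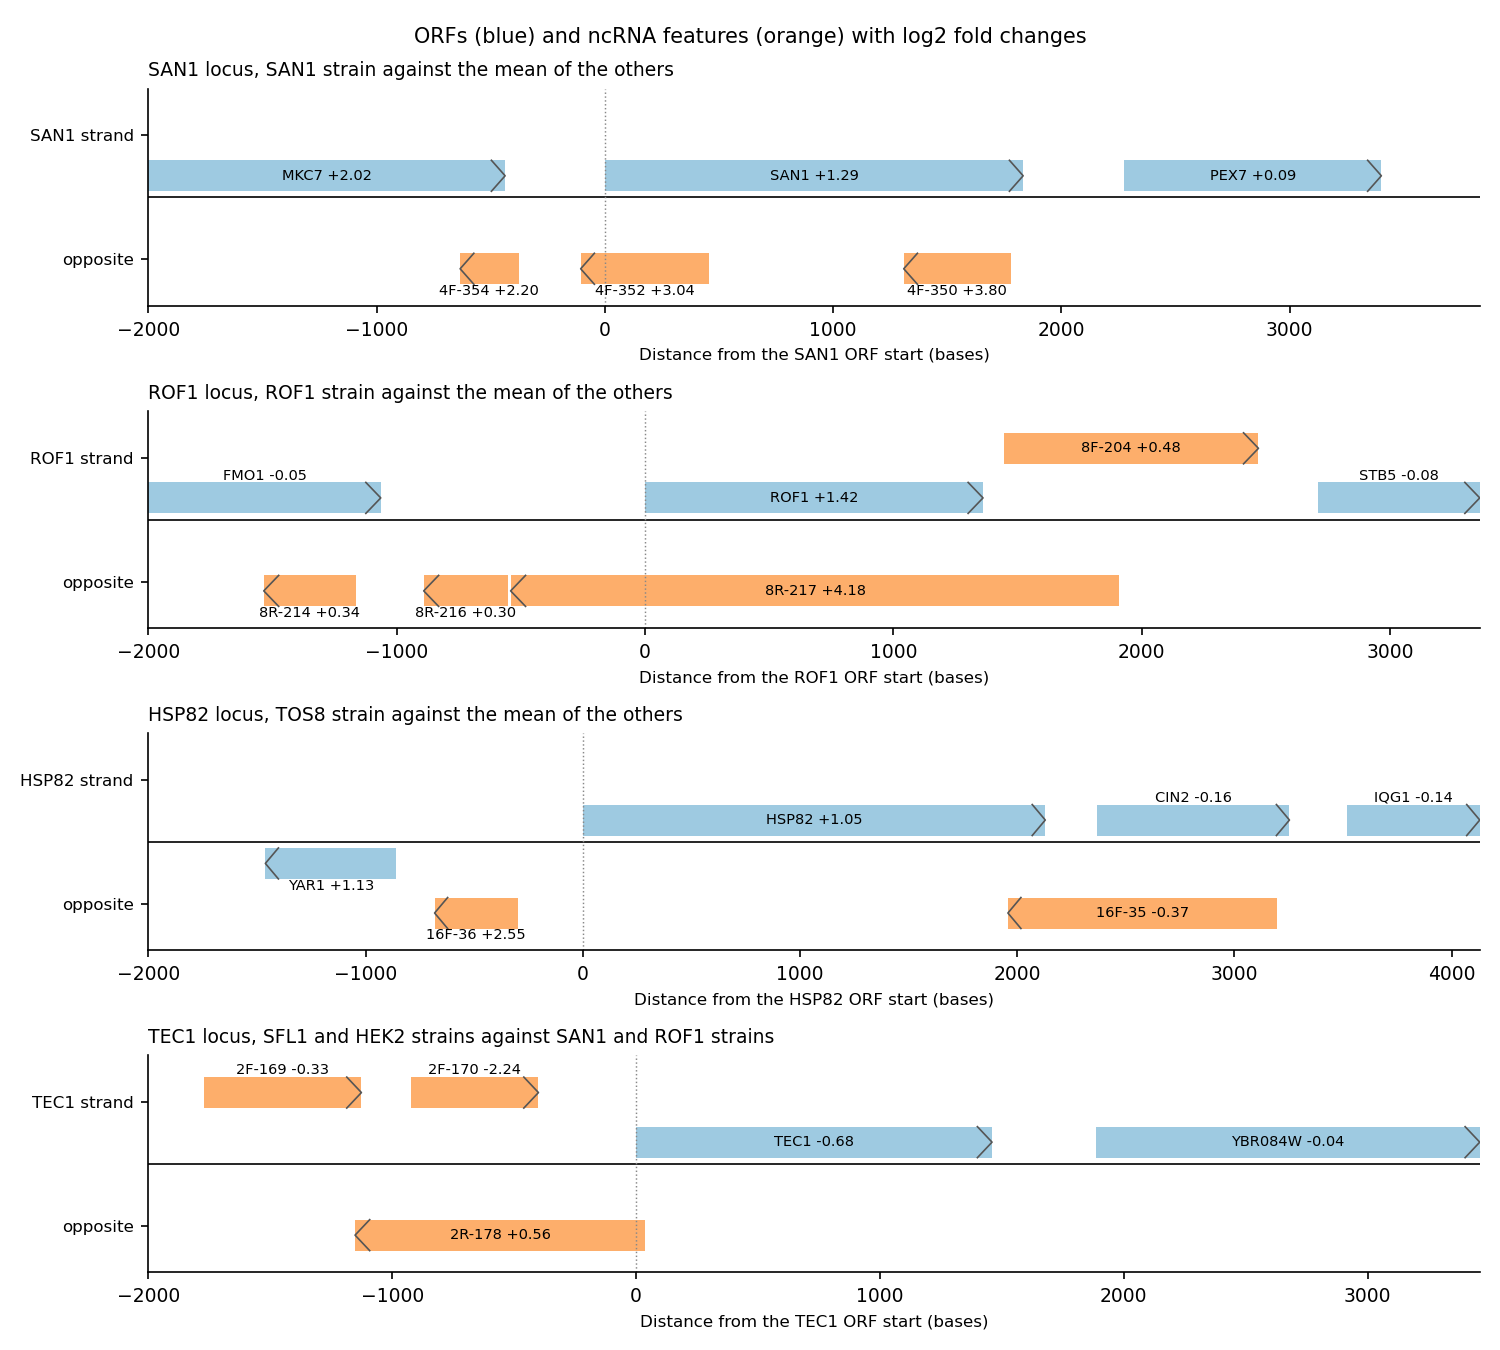
ORFs (blue) and analysed ncRNAs (orange) around 4 genes, to scale in bases from the start of the ORF, drawn on the strand of that gene or on the opposite strand, with log2 fold changes in the comparison named above each map. The 3 opposite-strand ncRNAs at SAN1 carry 2.20, 3.04, and 3.80, and 8R-217 covers the whole of ROF1 with 4.18.

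The log2 fold changes of ncRNAs and ORFs in the TOS8 comparison were set side by side by their relative position. Pearson correlations across pairs are given as a description, since pairs share libraries and some share a member. For the 901 pairs of an ncRNA antisense to a tested ORF the correlation was 0.05, and where both passed the threshold 31 pairs moved in the same and 23 in opposite directions. In the 510 divergent pairs it was 0.25, with 27 of 32 such pairs in the same direction. ncRNAs that follow the end of an ORF on the same strand had 0.29 over 194 pairs (15 of 17 in the same direction). Those before an ORF start on the same strand had 0.16 over 299 pairs (17 of 23). Among pairs whose ncRNA had at least 500 counts the correlations were 0.16 for antisense, 0.39 for divergent, 0.55 for following, and 0.29 for preceding ncRNAs. Between the SFL1 and HEK2 and the SAN1 and ROF1 strains, the correlation was -0.06 for antisense and 0.21 for divergent pairs, with 13 pairs in the same and 17 in opposite directions and with 9 of 10 in the same direction. It was 0.14 for following ncRNAs (4 of 5 in the same direction) and 0.16 for preceding ones (4 of 5). The ORF features end with the coding sequence, so reads from an mRNA's end may be counted on a following ncRNA. Their part in the values of following ncRNAs was not tested.

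**Figure D5:**
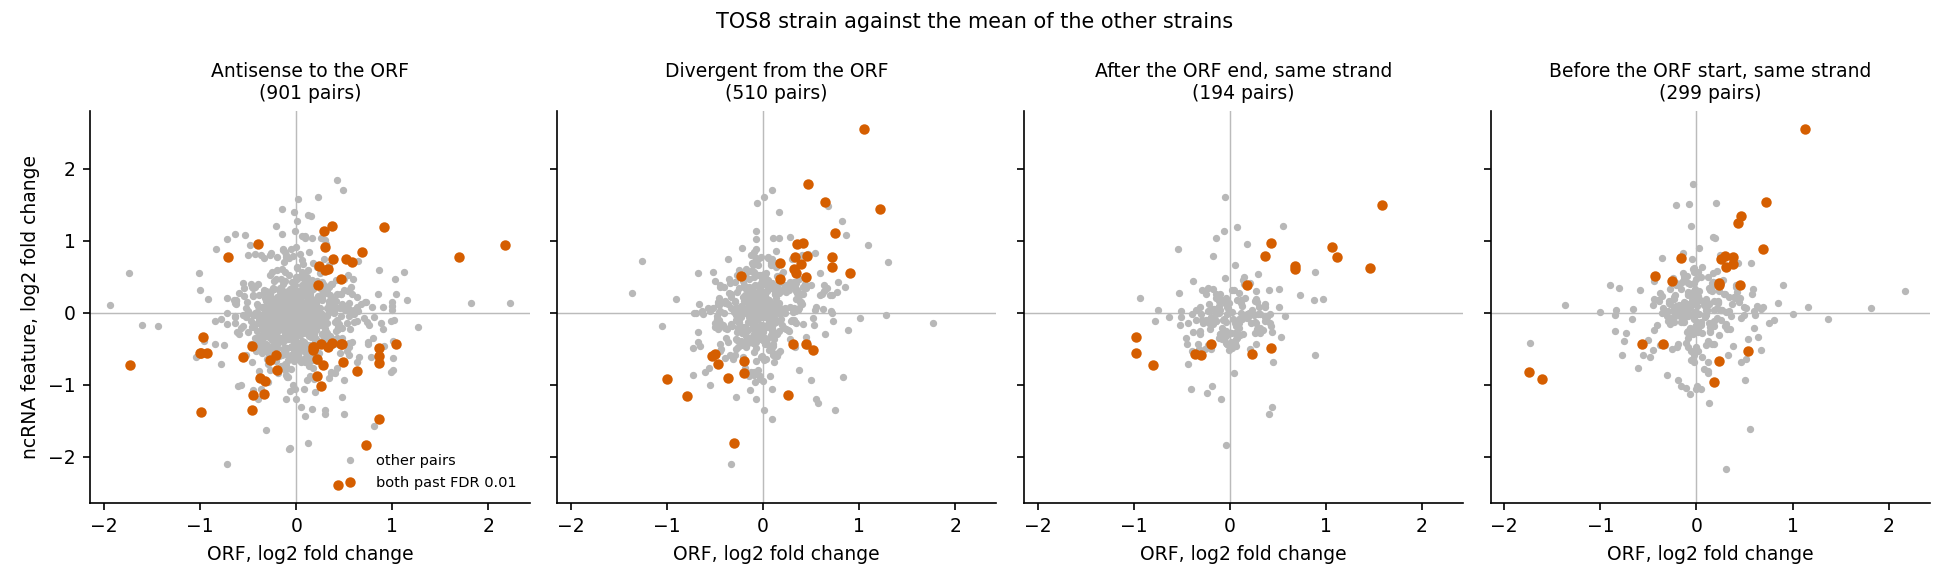
Log2 fold changes of ncRNAs (vertical axis) against those of their ORFs (horizontal axis) in the TOS8 strain against the mean of the other strains, 1 point per pair, in 4 panels by relative position. Orange points passed an FDR of 0.01 on both axes, and they fill all quadrants in the antisense panel but mostly 2 in the divergent panel (27 of 32 in the same direction).

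The 10 ncRNAs with the most counts took 15.0% of all counts on ncRNAs. A different ranking, by mean CPM per kilobase, gave the 10 described here. The first was 12F-188 (528 bases, chrXII:460075-460602, plus strand), which lies in the nontranscribed spacer NTS1-2 between ribosomal RNA genes. Its CPM was 14456, 14751, 12046, and 9924 in the TOS8 strain and 4381 to 8618 in the others, so the TOS8 strain did not overlap them (log2 0.94, adjusted p = 1.23e-12). The ribosomal DNA is repeated many times in the genome, so that these counts come from any of its copies. 9F-2, beyond CSS1, came next and was lowest in the TOS8 strain (mean 3489 CPM) and highest in the ROF1 strain (8142).

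Of the other 8, 3 differed by strain beyond the threshold. 15R-430, past the end of TYE7, a glycolytic regulator gene, had means of 3960 CPM in the TOS8 and 3529 in the ROF1 strain and 2015 to 2403 in the other 3. 10F-62, overlapping the end of the vacuolar gene SNA3 by 29 bases on the opposite strand, was at 2108 to 2612 CPM in the TOS8 strain and at 950.5 to 1729 elsewhere (log2 0.92, adjusted p = 5.57e-13). 16F-272, past ROX1, is described above. As there, reads from mRNA ends past TYE7 and CIN5 may be counted on 15R-430 and 15R-187, which was not tested. 12R-265, antisense to YLR297W, 5R-194, near GLC7 and over 2 long terminal repeats, 15R-187, past the regulator gene CIN5, and 9F-122, near RGI2 and over a replication origin, did not pass the test among strains (adjusted p = 0.710, 0.0709, 0.492, and 0.650), nor did 15F-436, divergent from YOR343C (adjusted p = 0.0118). The last, over long terminal repeats and with the highest mean of the 10 (10151 CPM), was lower by 0.25 in the SFL1 and HEK2 strains than in the other pair, SAN1 and ROF1 (adjusted p = 0.00637).

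A set of 3 gene lists was checked for ncRNAs over their ORFs. Of 33 genes of filamentation and flocculation, 7 had such ncRNAs, and 0 of these 9 ncRNAs passed the test among strains, which 15.8% of all features tested and 17.8% of the 1350 ncRNAs passed. With so few members, the counts of these lists do not set them apart from that share. They included 3 antisense to FLO1, the flocculin gene, with 34, 94, and 126 counts in all, and 1F-14 at FLO9, with 4392 counts (adjusted p = 0.576). The flocculin genes hold near-identical repeats, so such counts are uncertain. Of 13 genes known to be controlled by ncRNA transcription in yeast, 5 had ncRNAs here, at GAL1, PHO5, KCS1, ZIP2, and URA2, and 0 of the 6 passed. Of 20 genes of meiosis and sporulation, 9 had ncRNAs, and 1 of 10 passed (the 2 at ZIP2 are in both lists). This was 8F-22, which covers 99.3% of SPO11, the gene of the meiotic recombination nuclease, on the opposite strand. Its mean CPM was 222 ± 7.74, 223 ± 18.6, 208 ± 25.7, 151 ± 28.3, and 141 ± 19.7 (SD, n = 4) in the SFL1, HEK2, SAN1, ROF1, and TOS8 strains (adjusted p = 0.00702 among strains), and it passed in 0 of the 4 contrasts (0.0456 for TOS8). The largest difference between strains had a median of 0.65, 0.63, and 0.63 on the log2 scale in the 3 lists, against 0.83 over all 1350.

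As a whole the 1350 ncRNAs took 0.342% ± 0.00502 (SD, n = 4) of all counts in the TOS8 strain and 0.362% ± 0.0106 (n = 16) in the other libraries, with ranges of 0.334% to 0.346% and 0.353% to 0.396% that do not overlap (adjusted p = 0.00330, exact two-sided permutation test with adjustment over 4 comparisons). The adjusted p was 0.0743 without TOS8 replicate 1. As a share of the counts on features that are not ORFs, the difference was 0.253 percentage points in the other direction (adjusted p = 0.327, exact permutation test). The SAN1 strain had the highest mean, 0.371% ± 0.0171 (n = 4), which rested on SAN1 replicate 4 (0.396%). The other 3 comparisons of this share did not pass (adjusted p = 0.652, 0.457, and 0.171, exact permutation tests).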

How the data were processed

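RNA from 20 colony samples was sequenced by the authors as stranded, poly(A)-selected, paired 51-nt libraries. The authors aligned reads with Bowtie2 2.1.0 to the S288c genome (R64-1-1) extended with ncRNAs and F45 genes, and deposited raw counts per feature from featureCounts 1.4.0 run by strand. Reads were not filtered by mapping quality, so counts of near-identical sequences are uncertain. Of the ORFs named in both the files and RefSeq, 99.5% had the same start and end.

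From these counts, features not beginning with Y that had a median of at least 1 CPM (4007) were fitted with edgeR 4.0.16 (R 4.3.3; TMM, quasi-likelihood F-test, 1 mean per strain), and Benjamini-Hochberg adjustment ran over all 4007. The 5772 tested ORFs were fitted apart in the same way, which is where adjusted p-values of ORFs come from. Normalized CPM used TMM factors. Calls had an FDR below 0.01. Fits were tested on simulated data, as quoted for the TOS8 comparison. Shares of counts were compared by exact permutation tests.

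Named ncRNAs were the largest rises and falls per comparison (up to 6 and 6 for TOS8, 4 and 4, 3 and 3, and 3 and 3, with only 2 falls eligible for SFL1 against HEK2) among those called, not overlapping between groups, and with a mean of at least 10 counts in the higher group, plus the 10 most abundant per kilobase, those at or within 1000 bases of a plasmid gene, list members that differed among strains, those just inside the 1 CPM limit, and the ORF beside each. The ncRNAs and lists were chosen with earlier results of these data known. The sequences and the words searched in them were chosen after values were seen. Other normalizations, filters, thresholds, DESeq2 1.42.0, a replicate block, and leaving out each library were tried. Whether replicates were separate cultures is not stated beyond pooled colonies, so p-values measure the spread between these samples. Libraries of 1 strain differed by 5.11 to 98.9 times counting error over 30 pairs, so none was a repeat deposit.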

Additional observations from a re-analysis of the deposited data

Results flagged for a closer look

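In groups of 4, 1 library stood far from the other 3 by Dixon's ratio in 11 of 155 groups of named ncRNAs, where chance flags about 1 in 20. TOS8 replicate 1 was low for 12R-244 (194 CPM against 240.3 to 243, ratio 0.945) and for 13F-354 (116 against 153 to 156, 0.921) and high for 13F-342 (51.7 against 19.6 to 24.8, 0.839). HEK2 replicate 4 was high for 14R-347 (2829 against 1958 to 2095, 0.842).

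7F-95 had 1 high library in the HEK2 strain (replicate 3, 96.0 CPM against 38.8 to 46.0, ratio 0.873) and in the SAN1 strain (replicate 4, 159.6 against 25.5 to 41.9, 0.878). 4R-309 had a low library in the SFL1 strain (replicate 2, 126 against 176 to 185, 0.848) and in the HEK2 strain (replicate 1, 291 against 302 to 304, 0.835), and a high one in the ROF1 strain (replicate 1, 339 against 256 to 269, 0.850). At the plasmid genes, HEK2 replicate 1 was high for 4F-350 (136 against 76.2 to 79.98, 0.936) and SAN1 replicate 3 for 8R-217 (41.9 against 10.2 to 15.1, 0.844).

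Outside the ncRNAs, 404 counts fell on 90 features for ERCC spike-in sequences, 0 to 54 per library. The sources used here do not say whether spike-ins were added.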

How the results depend on the processing

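Of 1158 alternative values for the 44 named ncRNA comparisons, 1107 kept direction and call, 49 lost the call, 1 reversed, and 1 gained it. The reversal was 7R-133 at TOS8 without TOS8 replicate 1 (0.0511, with a range of -0.314 to 0.0511 over single libraries left out), and the gain 8F-22 in the TOS8 comparison with TMM over all features (-0.48, adjusted p = 0.00513). Of the 49 losses, 44 were in the SFL1 against HEK2 and SAN1 against ROF1 comparisons. The ncRNAs that differed among strains numbered 155 with at least 10 counts in every library and 150 without those sharing bases on their strand, which both test fewer ncRNAs. The TOS8 count was 236 at an FDR of 0.05 and 99 without sharing ncRNAs. The count between the SFL1 and HEK2 and the SAN1 and ROF1 strains was 180 at an FDR of 0.05, 68 with a fold above 1.5, and 65 without sharing ncRNAs. For SFL1 against HEK2 it was 16 with TMM over all features (2 higher, 14 lower), 16 with no filter (5 and 11), and 21 at an FDR of 0.05. With at least 10 counts it split 2 to 6. For SAN1 against ROF1 it was 6 with TMM over all features and 3 with at least 10 counts. The cause of these changes was otherwise not tested.

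Without 1 library the 5 counts ranged from 194 to 241, 109 to 160, 93 to 121, 3 to 9, and 5 to 16. The difference in share of counts ranged from -0.0218 to -0.0181, -0.00501 to 0.00121, 0.00204 to 0.00775, and 0.00591 to 0.0187 percentage points in the 4 comparisons. The TOS8 share turned to 0.253 as a share of non-ORF counts, and that of the SFL1 and HEK2 strains to 0.00273 without sharing ncRNAs. Deviations of same-numbered replicates had a mean correlation of 0.0159 over the features that are not ORFs and 0.114 over the ORFs, where it was 0.286, 0.218, and 0.291 between the SFL1 strain and the HEK2, SAN1, and ROF1 strains but did not exceed 0.1 in every pair of strains. The ORFs were fitted without a block only. For the ncRNAs, a replicate block gave 249 calls among strains, 85 higher and 82 lower in the TOS8 strain (78 and 109 with TMM over all features), 115 between the pairs, and 8 and 15 within them, and changed no call of the 44. Depth limits the 263 ncRNAs under 100 counts most.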
